A study of Mus musculus with 6 samples.

Results

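The genes described here are 40 mouse genes of fatty acid metabolism, a list fixed by name and not by any measured value. They comprise 12 genes of synthesis, 6 of acyl-chain activation, 3 of carnitine-dependent entry into mitochondria, 18 of oxidation and 1 acyl-CoA thioesterase gene. All 40 were found among the 55487 genes measured, and 39 of them were among the 11950 genes with enough reads to be tested. Poly(A) RNA came from splenic naive CD4+ T cells (TN cells) of wild-type C57BL6/J mice. The untreated group of 3 libraries received no treatment, and the other 3 libraries came from mice treated in vivo with rapamycin, an inhibitor of the kinase mTOR. The dose, its duration and the age of the mice were not given in the sources used here, nor was it stated whether each library came from a separate mouse, so the p-values rest on library-to-library spread that may be technical. The comparison asks how mTOR inhibition changes naive CD4+ T cells.

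Cells build fatty acids in the cytosol from acetyl-CoA, which ATP-citrate lyase makes from citrate and acetyl-CoA carboxylase turns into malonyl-CoA for fatty acid synthase. Elongases and desaturases then lengthen the chains and add double bonds, and SREBP transcription factors, which mTOR complex 1 activates, drive many of these genes. To be burned, a chain is joined to CoA by an acyl-CoA synthetase, passed into mitochondria by the carnitine palmitoyltransferases, which malonyl-CoA inhibits at the first step, and shortened by repeated rounds of beta-oxidation. Resting T cells rely mostly on oxidative metabolism, and activated T cells turn fatty acid synthesis on.

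Total expected counts ran from 9712671 to 11393317 in the untreated and from 8757280 to 9315370 in the rapamycin libraries, so that 3 counts correspond to between 0.26 and 0.348 CPM, counts divided by the scaled library total. Levels are given as CPM when groups are compared and as TPM (transcripts scaled likewise), which are per length, when genes are compared. A log2 fold change sets rapamycin against untreated libraries, 3 a group, and is given ± SE. Its adjusted p, called below 0.05, is edgeR's quasi-likelihood p after Benjamini-Hochberg adjustment over all tested genes, unless another tool or setting is named. Among genes of moderate or high level (mean log2 CPM from 2 up), fold changes followed transcript length, and the median ran from −0.32 in the shortest 10% to 0.25 in the longest 10%. The tested oxidation genes had a median length of 1781 bases and the synthesis genes one of 4684 bases, against 2366 bases for all tested genes, so a fit that removes this trend is given beside the results that it changes.

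The naive T cell markers were present, with Cd4 between 676 and 728 CPM and Cd3e between 344 and 360 CPM over the 6 libraries. Genes of other cells were present too. Of 7 regulatory T cell markers 3 were higher and 1 lower (sums of 49.5 to 53.2 and 49.1 to 58.7 CPM), and of 9 NK cell markers 1 was higher and 3 lower (77.0 to 80.1 and 69.3 to 71.6 CPM). The summed level of 10 B cell markers was 642 to 681 CPM in untreated and 624 to 658 CPM in rapamycin libraries, with 3 of 10 lower. Of 14 myeloid markers 10 were lower, with sums of 229 to 239 and 153 to 158 CPM, and both CD8 T cell markers were higher, with sums of 19.1 to 20.5 and 87.9 to 91.0 CPM. Of 8 plasma cell markers 4 were lower and 1 higher (53.8 to 56.8 and 26.2 to 29.3 CPM), and of 10 markers of activated and memory T cells 5 were lower and 3 higher (565 to 588 and 458 to 468 CPM). None of these markers was at 0 in all libraries. Enough reads for the test were found for 7 of the 9 NK cell and 12 of the 14 myeloid markers. The same held for 7 of the 8 plasma cell and 8 of the 10 activated and memory T cell markers. Among all tested genes, 24.1% were higher and 23.3% lower with rapamycin. The 6 adipocyte markers, with Cidec, Lep and Cfd at 0, summed to at most 0.38 CPM. The part of such cells in the results below was not tested, and in these bulk samples fewer cells of a type and less RNA per cell cannot be told apart.

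The promoter windows of the member with the largest rise, Cpt1a, and of the fallen member with the smallest adjusted p, Acsl5, are printed first, followed by the stretch shared by the divergent promoters of Hadha and Hadhb, whose small differences were nearly the same. They run 5′ to 3′, from RefSeq on GRCm38.p6, and each full window holds 250 bases before and 50 after the annotated start. Capitals mark motif matches on either strand.
Cpt1a, chr19:3323051-3323350, plus strand: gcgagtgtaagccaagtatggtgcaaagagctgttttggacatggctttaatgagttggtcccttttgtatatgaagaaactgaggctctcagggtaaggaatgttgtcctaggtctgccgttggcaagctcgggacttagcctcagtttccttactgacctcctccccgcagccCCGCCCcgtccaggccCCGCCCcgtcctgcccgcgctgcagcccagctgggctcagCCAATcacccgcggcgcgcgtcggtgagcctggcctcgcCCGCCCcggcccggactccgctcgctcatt
Acsl5, chr19:55253119-55253418, plus strand: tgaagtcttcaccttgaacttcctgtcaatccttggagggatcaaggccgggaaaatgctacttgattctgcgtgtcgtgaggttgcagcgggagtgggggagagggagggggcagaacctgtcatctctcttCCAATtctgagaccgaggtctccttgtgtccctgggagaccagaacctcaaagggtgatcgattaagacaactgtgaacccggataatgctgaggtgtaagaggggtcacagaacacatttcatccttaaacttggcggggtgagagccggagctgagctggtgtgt
Hadha and Hadhb, chr5:30155003-30155230, plus strand: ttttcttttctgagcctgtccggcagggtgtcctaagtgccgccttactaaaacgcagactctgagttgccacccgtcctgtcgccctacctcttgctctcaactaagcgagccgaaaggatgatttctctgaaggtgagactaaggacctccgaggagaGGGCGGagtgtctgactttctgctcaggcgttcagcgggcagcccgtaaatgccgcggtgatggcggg
The motifs searched, on both strands, were GGGCGG (GC box), CCAAT (NF-Y box), TCACNCCAC (sterol regulatory element), CACGTG (E-box), GTAAACA (FOXO site), TCAAGGTCA (ERR site) and the NRF1 site. The Cpt1a window held 3 GC boxes and 1 NF-Y box, the Acsl5 window 1 NF-Y box, and the Hadha and Hadhb stretch 1 GC box. By the gene annotation, Hadha, on the minus strand, extends to base 30155162 of chromosome 5, and Hadhb, on the plus strand, starts at base 30155248. RefSeq windows were matched for 32 of the 40 members, in 34 windows. A GC box was held by 24 of these (70.6%) and an NF-Y box by 16 (47.1%), against 35.7% and 37.4% of all 32851 windows. The 32851 windows were not limited to genes with enough reads to be tested, so the sets differ in more than pathway. The sterol regulatory element was found in 1 of the 34 windows (2.94%, Acsl1) and in 1.24% of all, the E-box in 1 (Elovl5) and in 7.15% of all, the FOXO site in 1 (Elovl6) and in 3.65% of all, and the NRF1 site in 1 (Etfdh) and in 0.971% of all. The ERR site, in 0.423% of all windows, was in none of the 34. Scd1, Scd2, Fads1, Cpt1b, Acaa2, Acat1, Decr1 and Hsd17b4 had no window.

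With rapamycin, 5 of the 39 tested members rose and 15 fell. Among all tested genes, 24.1% were higher and 23.3% lower, or 47.4% in either direction, so the share of members called, 20 of 39, was near that of all genes. By direction, the share of members that rose was below that of all genes and the share that fell was above it. With upper-quartile factors the split over all genes moved to 2459 higher and 3330 lower, and on the log2(TPM + 1) scale to 2720 higher and 1151 lower, against 2874 and 2785. The CPM ranges of the groups did not overlap for 25 of the 39 members and for 53.8% of all tested genes. The 5 that rose were Cpt1a, Fads1, Acss1, Acss2 and Elovl5. Among the 15 that fell, 10 belonged to oxidation, and the other 5 were the desaturase gene Scd2, the carboxylase gene Acacb, the elongase gene Elovl1, the synthetase gene Acsl5 and the thioesterase gene Acot7. The median log2 fold change was −0.05 over the synthesis genes, −0.05 over the activation genes, 0.25 over the 3 carnitine genes and −0.30 over the oxidation genes, against −0.01 over all genes tested. With the length correction these medians were −0.15, −0.17, 0.40 and −0.16, again against −0.01, and the oxidation and synthesis medians were then nearly equal. Both carnitine medians are the values of Cpt1b alone, which was not called (adjusted p = 0.674, and 0.513 with the correction). Without the correction Cpt1a had 0.98 and Cpt2 −0.21, and of the 3 only Cpt1a was called. With the length correction 5 members rose and 13 fell, where 20.2% of all genes were higher and 18.3% lower (38.5% in all). Of the 20 members called, 14 were called in the same direction with it. The correction ended the falls of Elovl1, Acads, Etfa, Eci1, Eci2 and Acaa1a, and added falls of Acly, Fasn, Elovl6 and Acsl4.

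**Figure D1:**
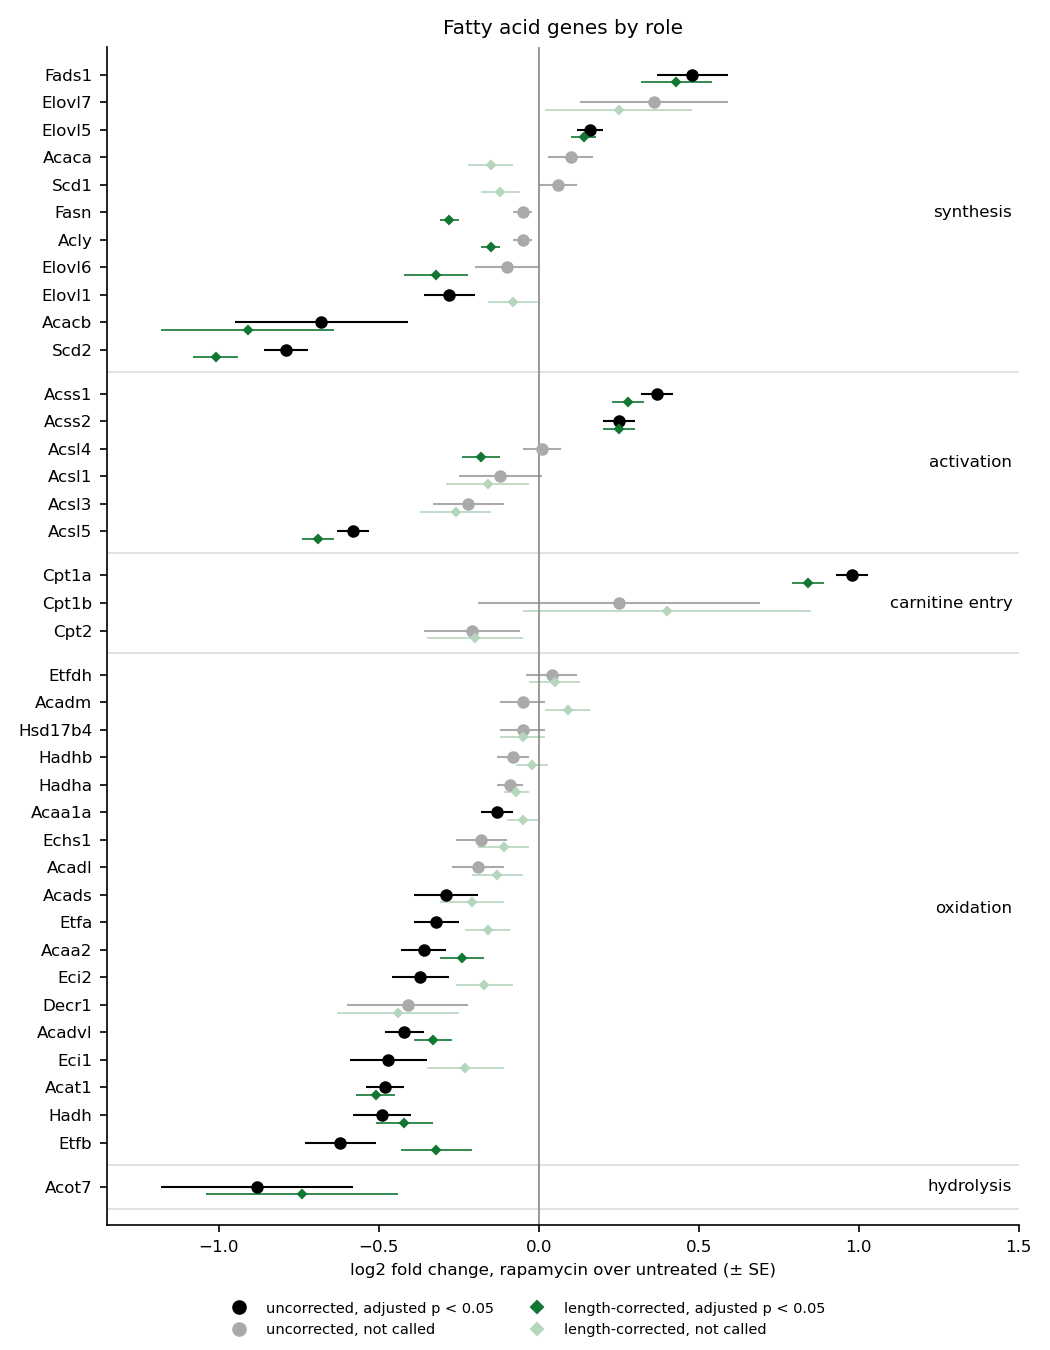
Log2 fold change (rapamycin over untreated, ± SE, 3 libraries a group) of the 39 tested fatty acid genes, ordered within each role; circles are the uncorrected and diamonds the length-corrected values, with dark symbols for an adjusted p under 0.05. Cpt1a stands at 0.98 at the right, and all oxidation genes except Etfdh (0.04) lie to the left of 0 without the correction.

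By level, the most abundant members were Acly at a mean of 102 TPM over the 6 libraries and Acaa1a at 92.2 TPM. Hadhb (70.6 TPM), Hadha (70.0 TPM) and Elovl5 (69.8 TPM) came next. The per-library ranges overlapped between Acly and Acaa1a, and among the other 3 genes. Fasn stood at 58.5 TPM. At the low end were Decr1 (3.46 TPM), Acot7 (2.95 TPM), Elovl7 (1.92 TPM), Cpt1b (1.82 TPM) and Acacb (0.907 TPM). Fads2, the delta-6 desaturase gene, had 1 count in 1 untreated library and none in the other libraries, and was not tested. Its partner in polyunsaturated fatty acid synthesis, Fads1, stood at 8.85 TPM.

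**Figure D2:**
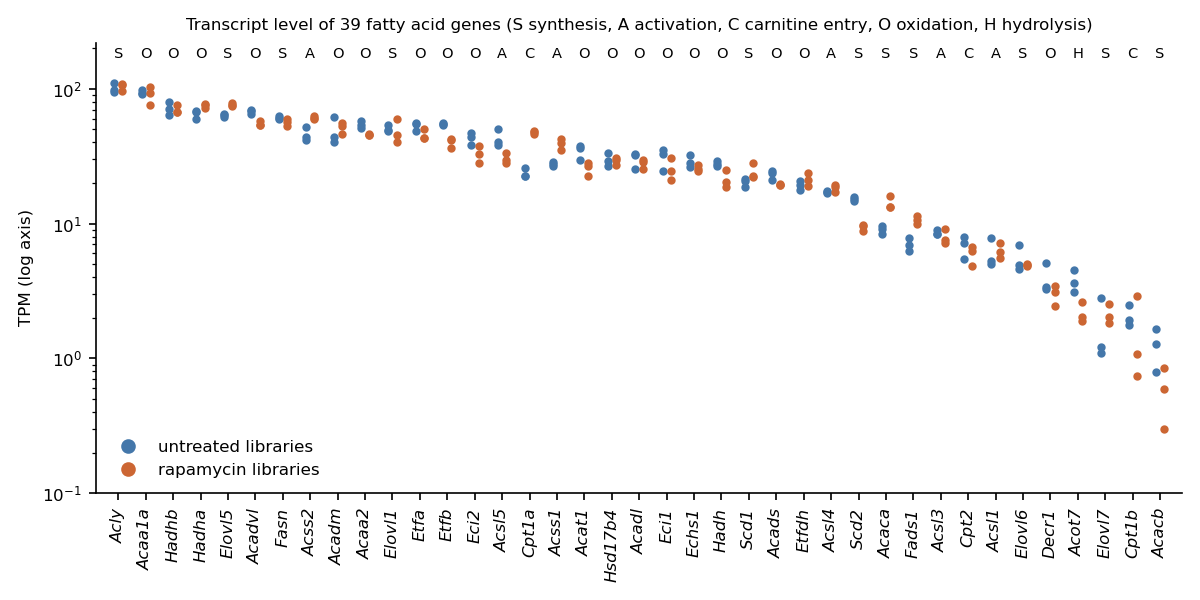
TPM of 39 members in each library on a log axis, ordered by the mean over 6 libraries, with letters for the role (Fads2, near 0, is left out). Acly is the highest at 102 TPM and Acacb the lowest at 0.907 TPM, and the 2 groups stand clearly apart for Cpt1a, Scd2 and Fads1.

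The most abundant genes of supply and assembly differed little in CPM. Acly, ATP-citrate lyase, stood at 258, 267 and 256 CPM in the untreated and at 248, 256 and 249 CPM in the rapamycin libraries, a log2 fold change of −0.05 ± 0.03 that did not pass the test (adjusted p = 0.117). Fasn, fatty acid synthase, stood at 237, 236 and 232 CPM and at 233, 226 and 222 CPM, with a log2 fold change of −0.05 ± 0.03 (adjusted p = 0.147). For Fasn the groups overlapped, and for Acly they were separated only by a fraction of 1 CPM. Both genes were called lower with the length correction, Acly by −0.15 (adjusted p = 2.3e-05) and Fasn by −0.28 (adjusted p = 1.9e-11), and with upper-quartile factors, each by −0.10 (adjusted p = 0.00418 and 0.00621). Offsets from the deposited effective lengths gave −0.22 for Fasn (adjusted p = 0.00795).

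The acetyl-CoA carboxylase genes differed in level and in their values. Acaca, which encodes the cytosolic enzyme that makes malonyl-CoA for synthesis, stood at 46.8, 49.5 and 43.9 CPM in untreated and at 47.7, 48.5 and 54.6 CPM in rapamycin libraries, with overlapping ranges (log2 fold change 0.10 ± 0.07, adjusted p = 0.216). Per length it read otherwise: 8.98 ± 0.611 TPM in untreated and 14.2 ± 1.58 TPM in rapamycin libraries (SD, n = 3), a difference of 0.60 on the log2(TPM + 1) scale by limma (adjusted p = 0.00567). Acaca was also called higher with effective-length offsets (0.55, adjusted p = 0.00164). The deposited gene-average transcript length of Acaca, an estimate weighted by isoform abundance, was 6701, 7411 and 7185 bases in untreated and 5270, 5365 and 5027 bases in rapamycin libraries, with no overlap. Its counts were also fractional in all 6 libraries, so some of its reads are shared with other sequences, and the length-corrected value was −0.15. Acacb, whose product sits at the mitochondrial surface and makes the malonyl-CoA that inhibits carnitine palmitoyltransferase, was rare, at 3.81, 3.99 and 4.27 CPM in untreated and 2.73, 3.05 and 1.74 CPM in rapamycin libraries. It fell by 0.68 ± 0.27 on the log2 scale (adjusted p = 0.0325). That call was lost without untreated replicate 1 (−0.72, adjusted p = 0.051), untreated replicate 2 (−0.69, adjusted p = 0.0591), untreated replicate 3 (−0.64, adjusted p = 0.0824) or rapamycin replicate 3 (−0.48, adjusted p = 0.182), and with DESeq2 (−0.68, adjusted p = 0.089), and on the log2(TPM + 1) scale (−0.50, adjusted p = 0.0968), while effective-length offsets gave −1.21 (adjusted p = 0.0456). Acacb made up 12.1 ± 3.96% of the summed TPM of both carboxylase genes without and 4.04 ± 2.10% with rapamycin (SD, n = 3).

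Among the desaturase genes, Scd2 fell and Fads1 rose. Scd2, a stearoyl-CoA desaturase that makes monounsaturated fatty acids, stood at 60.2, 62.7 and 58.5 CPM in untreated and at 32.7, 36.5 and 35.5 CPM in rapamycin libraries. The groups lay far apart, with a log2 fold change of −0.79 ± 0.07 (adjusted p = 1.4e-15), or −1.01 with the length correction. Scd1, the other stearoyl-CoA desaturase of the list, stood at 74.7, 71.7 and 65.1 CPM and at 74.7, 73.5 and 72.1 CPM, with overlapping groups and a log2 fold change of 0.06 ± 0.06 (adjusted p = 0.429). The share of Scd2 in the summed TPM of Scd1 and Scd2 averaged 43.0 ± 1.39% without and 28.1 ± 3.83% with rapamycin (SD, n = 3), and the groups did not overlap. Fads1, the delta-5 desaturase of polyunsaturated chains, stood at 15.4, 17.0 and 15.1 CPM in untreated and at 23.6, 20.1 and 22.7 CPM in rapamycin libraries. It rose by 0.48 ± 0.11 (adjusted p = 1.7e-04), and every rapamycin library was above every untreated one.

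Of the elongase genes, Elovl5 rose and Elovl1 fell. Elovl5, which extends polyunsaturated chains, stood at 123, 126 and 114 CPM in untreated and at 134, 143 and 131 CPM in rapamycin libraries, without overlap. Its log2 fold change of 0.16 ± 0.04 (adjusted p = 8.8e-04) was small, was 0.26 on the log2(TPM + 1) scale and lost its call with effective-length offsets (0.15, adjusted p = 0.0524). Elovl1, which makes very long saturated chains, stood at 37.0, 40.5 and 36.0 CPM and at 29.9, 35.3 and 28.4 CPM. It fell by 0.28 ± 0.08 on the log2 scale (adjusted p = 0.00366), a call that ended with the length correction (−0.08, adjusted p = 0.449), on the log2(TPM + 1) scale (−0.08, adjusted p = 0.702) and with effective-length offsets (−0.18, adjusted p = 0.361). Elovl6, which extends palmitate, did not pass the test (−0.10 ± 0.10, adjusted p = 0.455) except with the length correction (−0.32, adjusted p = 0.00995). The share of Elovl5 in the summed TPM of the 4 elongase genes went from 52.4 ± 1.51% to 58.0 ± 3.52% (SD, n = 3), with ranges that met at 54.1% when rounded. Elovl7 was rare (0.36 ± 0.23, adjusted p = 0.199) and was called only without untreated replicate 3 (0.67, adjusted p = 0.028).

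**Figure D3:**
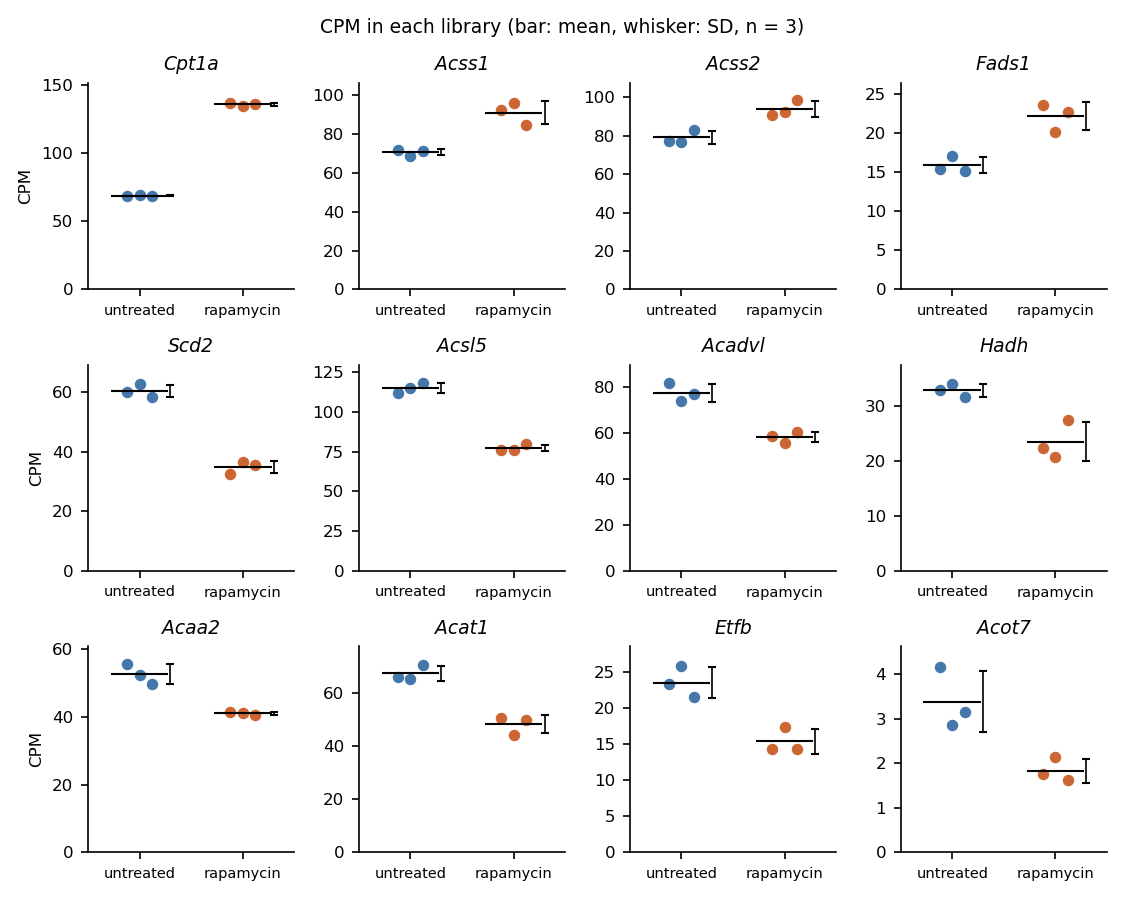
CPM of 12 members in each of the 6 libraries, each panel with its own axis from 0; the bar is the group mean and the whisker the SD (n = 3). In all 12 panels the 3 rapamycin libraries lie on one side of the 3 untreated libraries. The 12 were picked from members called in the test, so this separation is no separate result. CPM ranges did not overlap for 25 of the 39 tested members and for 53.8% of all tested genes.

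Both acetate-activating genes rose. Acss1, the mitochondrial acetyl-CoA synthetase, stood at 71.9, 68.8 and 71.2 CPM in untreated and at 92.5, 96.2 and 84.5 CPM in rapamycin libraries. The groups did not overlap, and the log2 fold change was 0.37 ± 0.05 (adjusted p = 2.6e-08). Acss2, the enzyme of cytosol and nucleus, stood at 77.4, 77.0 and 83.0 CPM and at 90.6, 92.3 and 98.4 CPM, a rise of 0.25 ± 0.05 (adjusted p = 4.1e-05) that was 0.42 on the log2(TPM + 1) scale. Acss1 made up 37.9 ± 2.75% of their summed TPM without and 38.9 ± 2.36% with rapamycin, and these ranges overlapped.

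Of the 4 long-chain acyl-CoA synthetase genes, Acsl5 fell and the others did not pass the test. Acsl5, which sits at mitochondria and the endoplasmic reticulum, stood at 112, 115 and 118 CPM in untreated and at 76.3, 75.7 and 79.6 CPM in rapamycin libraries. The gap between the groups was many times the spread within them, and the log2 fold change was −0.58 ± 0.05 (adjusted p = 2.5e-16). Its share of the summed TPM of Acsl1, Acsl3, Acsl4 and Acsl5 was 57.5 ± 2.10% in untreated and 48.2 ± 2.92% in rapamycin libraries, and that of Acsl4, which prefers arachidonate, was 23.1 ± 2.38% and 29.2 ± 2.68%. Neither pair of ranges overlapped. By count Acsl4 had a log2 fold change of 0.01 ± 0.06 (adjusted p = 0.91), which turned to −0.18 and was called with the length correction (adjusted p = 0.00903). Acsl3, a synthetase of lipid droplets, had −0.22 ± 0.11 (adjusted p = 0.11) and shares exonic sequence on its strand with Utp14b. Acsl1 had −0.12 ± 0.13 (adjusted p = 0.507). Exons of Acsl5 overlap Zdhhc6 on the opposite strand, and whether the counting used strand was not given in the sources used here.

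**Figure D4:**
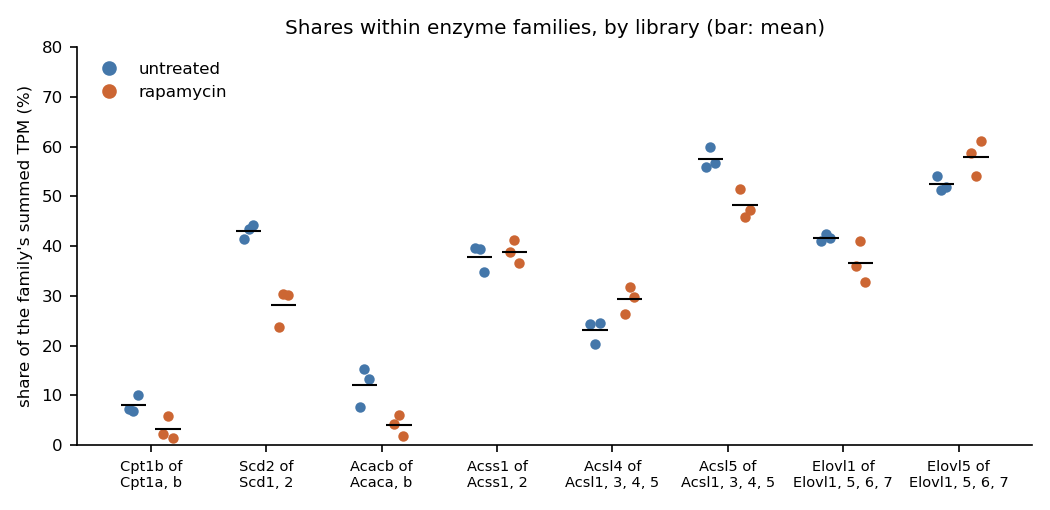
Share of named genes in the summed TPM of their enzyme family (y axis, percent) in each library, with bars at the group means. Scd2 went from 43.0% to 28.1% of the Scd1 and Scd2 sum and Acsl5 from 57.5% to 48.2% of its family's sum, while the Acss1 values of the 2 groups overlap.

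Carnitine entry held the member with the largest log2 fold change among those called higher. Cpt1a, carnitine palmitoyltransferase 1A (ENSMUSG00000024900, mm10 chromosome 19, 3322334 to 3385733), is the gate through which long chains enter mitochondria. It stood at 68.4, 69.6 and 68.8 CPM in untreated and at 137, 135 and 136 CPM in rapamycin libraries, a 1.97-fold rise. The log2 fold change was 0.98 ± 0.05 (adjusted p = 4.1e-27), or 0.84 with the length correction (adjusted p = 2.5e-23), and lay between 0.97 and 0.99 when any 1 library was left out. In TPM it went from 23.6 ± 2.03 to 47.5 ± 1.27 (SD, n = 3). Cpt1b, the muscle form, was rare at 0.52, 2.19 and 0.915 CPM and at 0.764, 2.14 and 1.39 CPM, and did not pass the test (0.25 ± 0.44, adjusted p = 0.674). It shares exons on its strand with Gm44502, had fractional counts in 5 libraries and changed sign between settings, so its value is uncertain. Its share of the Cpt1a and Cpt1b sum in TPM was 8.06 ± 1.68% without and 3.20 ± 2.34% with rapamycin (SD, n = 3).

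Cpt2, the partner enzyme on the inner membrane, stood at 11.6, 10.1 and 8.85 CPM in untreated and at 7.32, 9.47 and 9.73 CPM in rapamycin libraries. The groups overlapped, and the log2 fold change of −0.21 ± 0.15 did not pass the test (adjusted p = 0.263). The ratio of Cpt1a to Cpt2 in TPM was 3.13, 3.27 and 4.13 in untreated and 9.81, 7.41 and 7.29 in rapamycin libraries. The ratio of Cpt1a to Acadvl, the gene of the first dehydrogenase that acts on the chains it admits, was 0.351 ± 0.0446 in untreated and 0.865 ± 0.0195 in rapamycin libraries. Neither ratio overlapped between the groups, but Cpt1a is the numerator of both, so its rise given above enters both.

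Of the 18 oxidation genes 10 fell, where 23.3% of all genes were lower, and the other 8 did not pass the test. None was called higher by edgeR or DESeq2, and 0 had an unadjusted p under 0.05 with a higher level. With the length correction 5 of the 18 fell, against 18.3% of all genes. Among the 4 acyl-CoA dehydrogenase genes, which make the first double bond for chains of different lengths, Acadvl (very long chains) stood at 81.8, 74.0 and 76.8 CPM in untreated and at 58.6, 55.7 and 60.3 CPM in rapamycin libraries. It fell by 0.42 ± 0.06 on the log2 scale (adjusted p = 7.8e-09), and by 0.33 with the length correction, and the groups lay well apart. Its counts were fractional in all 6 libraries and its exons overlap Dvl2 on the opposite strand. Acads (short chains) stood at 24.5, 28.1 and 26.0 CPM and at 22.0, 21.2 and 21.1 CPM, and fell by 0.29 ± 0.10 on the log2 scale (adjusted p = 0.00956). That call was lost without untreated replicate 2 (−0.24, adjusted p = 0.0649), with the length correction (−0.21, adjusted p = 0.0736) and on the log2(TPM + 1) scale (−0.24, adjusted p = 0.0606). Acadl (long chains) had −0.19 ± 0.08 (adjusted p = 0.0574) and Acadm (medium chains) −0.05 ± 0.07 (adjusted p = 0.588). Acadl was called without untreated replicate 3 (−0.28, adjusted p = 0.00832) or rapamycin replicate 1 (−0.25, adjusted p = 0.0289), with upper-quartile factors (−0.23, adjusted p = 0.0185) and without the low-count filter (−0.21, adjusted p = 0.0413).

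Of the enzymes of the later steps, Hadh, Acaa2 and Acat1 fell. Hadha and Hadhb encode the 2 subunits of the mitochondrial trifunctional protein, which handles long chains. Hadha stood at 110, 106 and 105 CPM and at 100, 99.6 and 103 CPM (−0.09 ± 0.04, adjusted p = 0.107), and Hadhb stood at 85.7, 88.9 and 85.8 CPM and at 84.0, 84.8 and 77.5 CPM (−0.08 ± 0.05, adjusted p = 0.195). In both the ranges fell just short of overlapping, and Hadhb was called lower with upper-quartile factors (−0.12, adjusted p = 0.0385). Hadha was also called higher on the log2(TPM + 1) scale (0.20, adjusted p = 0.0498), where its gene-average transcript length was 2407 bases in untreated and 2138 bases in rapamycin libraries, and lower with upper-quartile factors (−0.13, adjusted p = 0.0134), so no direction holds across scalings. Hadh, the dehydrogenase of shorter hydroxyacyl chains, stood at 33.0, 34.1 and 31.7 CPM in untreated and at 22.4, 20.8 and 27.5 CPM in rapamycin libraries. It fell by 0.49 ± 0.09 on the log2 scale (adjusted p = 8.4e-06), with the third rapamycin library closest to the untreated group. Echs1, the short-chain hydratase, had −0.18 ± 0.08 (adjusted p = 0.0654) and was called without untreated replicate 2 (−0.23, adjusted p = 0.0408) or rapamycin replicate 3 (−0.23, adjusted p = 0.0496), and with upper-quartile factors (−0.23, adjusted p = 0.0211).

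Of the mitochondrial thiolase genes, Acaa2 and Acat1 fell, and Hadhb, which carries the thiolase of the trifunctional protein, did not pass the test. Acaa2, a thiolase of the last step of each round, stood at 55.7, 52.3 and 49.8 CPM in untreated and at 41.4, 41.2 and 40.6 CPM in rapamycin libraries. The log2 fold change was −0.36 ± 0.07 (adjusted p = 8.0e-06), or −0.24 with the length correction (adjusted p = 0.00345). Acat1, acetoacetyl-CoA thiolase, which also serves ketone and isoleucine metabolism, stood at 65.9, 65.3 and 70.5 CPM and at 50.5, 44.3 and 49.9 CPM. It fell by 0.48 ± 0.06 on the log2 scale (adjusted p = 2.1e-09), and by 0.51 with the length correction. In both genes every rapamycin library lay below every untreated one.

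Electrons from the dehydrogenases pass to the respiratory chain through the flavoprotein subunits Etfa and Etfb and the ubiquinone oxidoreductase Etfdh. Etfb stood at 23.3, 25.9 and 21.5 CPM in untreated and at 14.4, 17.4 and 14.4 CPM in rapamycin libraries. Its log2 fold change of −0.62 ± 0.11 (adjusted p = 3.2e-06) shrank to −0.32 with the length correction (adjusted p = 0.0163). Etfa stood at 45.0, 41.8 and 45.6 CPM and at 34.0, 34.5 and 37.7 CPM, a fall of −0.32 ± 0.07 (adjusted p = 2.3e-04) that was not called after length correction (−0.16, adjusted p = 0.0854) or on the log2(TPM + 1) scale (−0.22, adjusted p = 0.0895). Etfdh had a log2 fold change of 0.04 ± 0.08 (adjusted p = 0.693), with overlapping groups.

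Of the auxiliary enzymes of unsaturated chains, Eci1 and Eci2 fell, and neither was called with the length correction. Eci1, an enoyl-CoA isomerase, stood at 20.3, 16.4 and 18.0 CPM in untreated and at 12.7, 12.5 and 14.3 CPM in rapamycin libraries (−0.47 ± 0.12, adjusted p = 7.4e-04, and −0.23 with the correction, adjusted p = 0.122). It was also not called on the log2(TPM + 1) scale (−0.27, adjusted p = 0.261) or with effective-length offsets (−0.40, adjusted p = 0.115). Eci2, a second isomerase, stood at 28.2, 28.3 and 28.9 CPM and at 19.5, 22.1 and 24.2 CPM (−0.37 ± 0.09, adjusted p = 7.1e-04, and −0.17 with the correction, adjusted p = 0.153). Decr1, dienoyl-CoA reductase, had −0.41 ± 0.19 (adjusted p = 0.0672), and was called without untreated replicate 1 (−0.51, adjusted p = 0.0359), without rapamycin replicate 3 (−0.51, adjusted p = 0.0484) and with upper-quartile factors (−0.45, adjusted p = 0.0412).

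Of the 2 peroxisomal members, Acaa1a, a peroxisomal thiolase, stood at 107, 111 and 102 CPM in untreated and at 90.9, 103 and 98.7 CPM in rapamycin libraries, with overlapping ranges. Its log2 fold change of −0.13 ± 0.05 (adjusted p = 0.0197) was not called with DESeq2 (−0.13, adjusted p = 0.0691), on the log2(TPM + 1) scale (−0.07, adjusted p = 0.661), with effective-length offsets (−0.17, adjusted p = 0.219), with the length correction (−0.05, adjusted p = 0.43), without untreated replicate 2 (−0.11, adjusted p = 0.0964) or without rapamycin replicate 1 (−0.08, adjusted p = 0.213). It has a close paralog in the mouse genome and its exons overlap Myd88 on the opposite strand. Hsd17b4, the peroxisomal bifunctional enzyme, had −0.05 ± 0.07 (adjusted p = 0.563). Acot7, a cytosolic thioesterase that releases free fatty acids from acyl-CoA, was rare, at 4.16, 2.85 and 3.15 CPM and at 1.75, 2.14 and 1.62 CPM. It fell by 0.88 ± 0.30 on the log2 scale (adjusted p = 0.0131), a call that was lost without untreated replicate 1 (−0.71, adjusted p = 0.112) and kept at −0.57 on the log2(TPM + 1) scale (adjusted p = 0.0353).

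The regulators around the pathway moved in both directions. For comparison, 24.1% of all tested genes were higher and 23.3% lower, or 20.2% and 18.3% with the length correction. Of 13 tested genes of the SREBP, LXR and PPAR systems, 4 rose and 3 fell, with a median of 0.08, or 3 and 3 with a median of −0.01 after the length correction. Srebf1, which encodes the SREBP form tied to fatty acid synthesis, went from 139 ± 0.0757 to 108 ± 0.532 CPM (SD, n = 3), a log2 fold change of −0.37 ± 0.04 (adjusted p = 1.6e-11) that was −0.21 on the log2(TPM + 1) scale (adjusted p = 0.0503). Rxrb, a retinoid X receptor gene, rose by 0.26 ± 0.04 (adjusted p = 1.6e-06), and Ppargc1b, a coactivator gene of mitochondrial oxidation, rose from 15.2 ± 1.57 to 21.8 ± 2.51 CPM, by 0.52 ± 0.11 (adjusted p = 9.1e-05). Mlxipl, Ppara, Pparg, Ppargc1a and Thrsp had too few reads to be tested. Of 10 genes of AMPK and malonyl-CoA control, 3 rose and 2 fell, with a median of −0.06, and with the length correction 1 rose and 2 fell, with a median of 0.02. The kinase gene Stk11 rose by 0.18 ± 0.04 (adjusted p = 1.5e-05), and the AMPK catalytic subunit gene Prkaa1 rose by 0.20 ± 0.06 (adjusted p = 0.00225), which became 0.03 with the length correction (adjusted p = 0.698) and lost its call with effective-length offsets (0.18, adjusted p = 0.0531). Prkab2, of an AMPK beta subunit, rose by 0.45 ± 0.12 (adjusted p = 0.00232), and was not called with the length correction (0.27, adjusted p = 0.0795). Cab39, a partner of Stk11, fell by 0.13 ± 0.03 on the log2 scale (adjusted p = 2.4e-04), but not on the log2(TPM + 1) scale (−0.01, adjusted p = 0.922) or with effective-length offsets (−0.12, adjusted p = 0.0607).

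Around synthesis, the precursor and NADPH list had 1 gene higher (Acss2, a member) and 2 lower of 6, with a median of −0.07. Pgd, a pentose phosphate dehydrogenase gene, fell by 0.33 ± 0.06 on the log2 scale (adjusted p = 3.2e-06), and the mitochondrial citrate carrier gene Slc25a1 fell by 0.38 ± 0.12 (adjusted p = 0.00552), or −0.22 and not called with the length correction (adjusted p = 0.137). Of 6 tested partners of the elongases 4 fell, with a median of −0.23, or 2 with a median of −0.06 after the length correction. Over all tested genes, 24.1% were higher and 23.3% lower, or 20.2% and 18.3% with the correction. The reductase genes Tecr and Hsd17b12 had −0.28 ± 0.04 (adjusted p = 3.8e-07, and −0.02 with the correction, not called, adjusted p = 0.706) and −0.36 ± 0.09 (adjusted p = 8.1e-04). Cyb5a, which feeds electrons to desaturases, had −0.36 ± 0.06 (adjusted p = 3.1e-06, and −0.06 with the correction, not called, adjusted p = 0.461). In the separate mitochondrial fatty acid synthesis pathway, which makes the lipoate precursor, 5 of 10 genes fell (median −0.36), and 2 rose and 2 fell with the correction. They included Hsd17b8 at −0.35 ± 0.05 (adjusted p = 5.4e-09, and −0.09 with the correction, not called, adjusted p = 0.128), Cbr4 at −0.88 ± 0.22 (adjusted p = 8.5e-04, not called with effective-length offsets, −0.86, adjusted p = 0.0754) and Mcat at −0.33 ± 0.11 (adjusted p = 0.0113). The Mcat call ended without untreated replicate 1 (−0.27, adjusted p = 0.0711) or rapamycin replicate 3 (−0.29, adjusted p = 0.0528), and with the correction (−0.22, adjusted p = 0.114).

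Around oxidation, no gene that supplies or carries carnitine passed the test. Among all tested genes, 24.1% were higher and 23.3% lower, or 20.2% and 18.3% with the length correction. Of 7 tested genes of carnitine supply and transport, 0 were called by edgeR in either direction, 0 had an unadjusted p under 0.05 and 0 were called by DESeq2 (median −0.09). The list includes the plasma membrane carnitine transporter Slc22a5 and the acylcarnitine carrier Slc25a20. Aldh9a1, the most abundant of them, had −0.09 ± 0.07 (adjusted p = 0.29), and was called without rapamycin replicate 3 (−0.17, adjusted p = 0.0447). Of 13 other genes of mitochondrial acyl-CoA oxidation 2 fell (median −0.10), and 1 rose and 1 fell with the length correction (median −0.06). The 2 that fell were Pdk1, a kinase that restrains pyruvate oxidation, at −0.18 ± 0.03 (adjusted p = 3.2e-07, not called at −0.04 on the log2(TPM + 1) scale, adjusted p = 0.537) and Ivd, of leucine breakdown, at −0.18 ± 0.06 (adjusted p = 0.00615, and −0.06 with the correction, adjusted p = 0.414). The Ivd call was also lost without rapamycin replicate 3 (−0.12, adjusted p = 0.0934). Of 14 peroxisomal genes 1 rose and 1 fell (median −0.10). Scp2, of sterol carrier and thiolase function, rose by 0.17 ± 0.03 (adjusted p = 1.2e-05), or 0.38 with the correction, but not with effective-length offsets (0.07, adjusted p = 0.358). Decr2, the peroxisomal dienoyl-CoA reductase, fell from 12.9 ± 0.496 to 8.02 ± 1.67 CPM (−0.69 ± 0.15, adjusted p = 9.6e-05).

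Of 11 tested genes of fatty acid uptake and acyl-CoA binding, 3 rose and 3 fell (median 0.06), and with the length correction the 3 genes called were all higher (median −0.05). The acyl-CoA-binding domain genes Acbd3 and Acbd5 rose by 0.31 ± 0.05 (adjusted p = 4.9e-07) and 0.32 ± 0.07 (adjusted p = 5.3e-05, not called with effective-length offsets at 0.19, adjusted p = 0.308), and Dbi, the acyl-CoA-binding protein itself, had −0.58 ± 0.15 (adjusted p = 7.5e-04, and −0.21 with the correction, adjusted p = 0.279). Of 8 other thioesterase genes 5 fell (median −0.30), or 2 with the correction. They included Them6 at −0.36 ± 0.08 (adjusted p = 1.1e-04), Acot13 at −0.58 ± 0.14 (adjusted p = 3.7e-04, and −0.26 with the correction, adjusted p = 0.137) and Acot8 at −0.34 ± 0.12 (adjusted p = 0.0142). The Acot8 call was lost without untreated replicate 1 (−0.29, adjusted p = 0.0828) and with the correction (−0.10, adjusted p = 0.555). Of 17 genes of triglyceride storage and lipolysis 3 fell (median −0.07), and with the length correction 1 rose and 5 fell (median −0.06). They were Lipa, the lysosomal acid lipase (−0.33 ± 0.05, adjusted p = 2.5e-07), the acyltransferase gene Agpat3 (−0.18 ± 0.04, adjusted p = 1.4e-04, not called at −0.14 on the log2(TPM + 1) scale, adjusted p = 0.17) and G0s2, an inhibitor of lipolysis (−0.64 ± 0.27, adjusted p = 0.0422). G0s2 lost its call without any 1 library other than rapamycin replicate 2 (adjusted p of 0.0629 to 0.151), with DESeq2 (−0.64, adjusted p = 0.107), without the low-count filter (−0.66, adjusted p = 0.0568), with effective-length offsets (−0.63, adjusted p = 0.0849) and with the correction (−0.36, adjusted p = 0.295). On the log2(TPM + 1) scale the calls of Slc25a1, Hsd17b12, Cbr4, Mcat, Acbd5, Ivd and Acot8 also ended (adjusted p from 0.0764 to 0.864). Over the 112 tested genes of these lists that are not members, 11 rose and 29 fell, with a median of −0.12, where 24.1% of all genes were higher and 23.3% lower. The share that fell was near that of all genes, while the share that rose was below it, here and with the length correction. The counts were 12 and 18, with a median of −0.06 after the length correction, where 20.2% of all genes were higher and 18.3% lower.

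**Figure D5:**
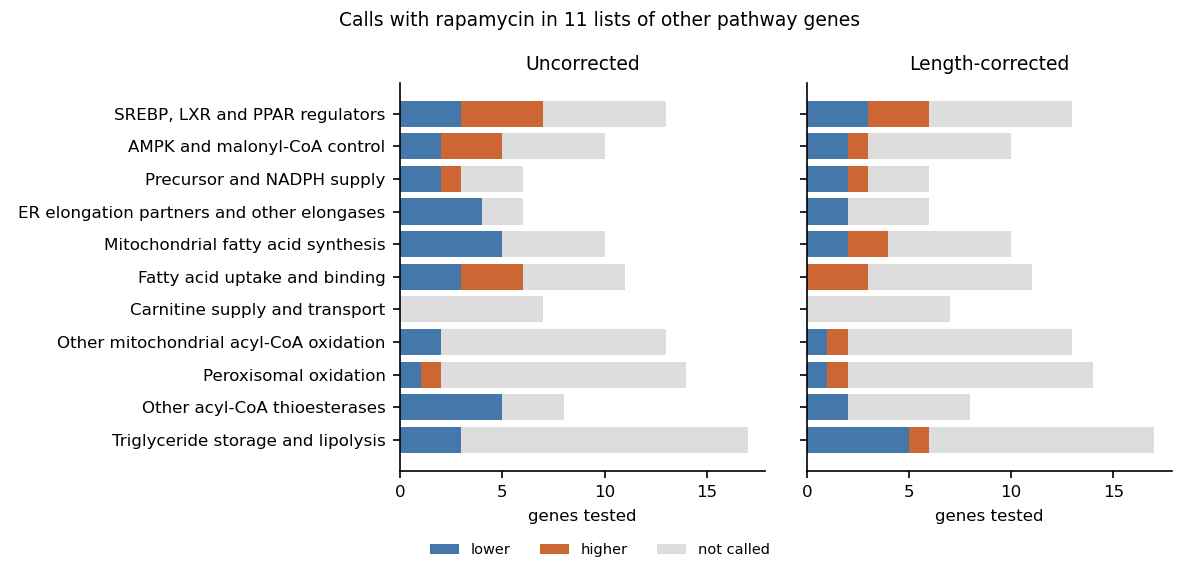
Number of tested genes called lower, higher or not called with rapamycin in 11 lists of other pathway genes, without (left) and with (right) the length correction; the lists also hold the members Acly, Acacb and Acss2. The carnitine supply list has no called gene in either panel, and the uptake list goes from 3 lower genes to none with the correction.

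The deposited gene-average transcript lengths were compared as a separate readout. Among the 37 members with several annotated transcripts and a length that varied between libraries, 4 had ranges that did not overlap between the groups, where 17.7% of 9903 such genes did. Acaca and Hadha were shorter in rapamycin libraries, as given above. Fasn was longer, at 5254, 5491 and 5309 bases in untreated and 5705, 5799 and 6171 bases in rapamycin libraries, and Echs1 was slightly longer, at means of 1757 and 1859 bases. The lengths are estimates of RSEM, and the transcriptome-wide trend of fold change with length stood beside them in the same libraries.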

How the data were processed

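Libraries were made from RNAiso PLUS extracts with a directional NEBNext Ultra II kit, per the labels' protocols. STAR, RSEM and mm10 are named in the submitters' processing notes, without versions. The deposited expected counts are RSEM estimates that divide shared reads between genes. The TPM and FPKM values were scaled by the authors, with FPKM not used here, and the length and effective length columns are in bases per the file headers. Values off a whole number by over 0.005 held 25.9% to 29.7% of a library's expected counts. GENCODE M21 (GRCm38) gave symbols and positions for 55227 of 55487 identifiers, and Hsd17b8 was found as H2-Ke6.

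Counts were rounded, filtered with filterByExpr, scaled with TMM factors and tested with edgeR's robust quasi-likelihood fit with group as the one term. The SE is the fold change over the square root of F. The length correction fitted, per library, a spline (5 degrees of freedom) of log2 CPM deviations on log2 length, for genes whose mean log2 CPM was 2 or more. The alternatives were RLE and upper-quartile factors, no low-count filter, DESeq2, offsets from the effective lengths, limma on log2(TPM + 1) and log2(TPM + 0.1), the length correction, a replicate block and leaving out each library.

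The members, lists, tests and the length correction were chosen with earlier results of these data known. Values per library were planned in TPM and are given in CPM, the scale of the test, for members called at a log2 size of at least 0.3 and the 2 most abundant of each role. Acaca, Scd1, Fasn, Elovl1, Cpt1b, Acads and Hadha got them after theirs were seen. Up to 3 called genes of each other list were named by smallest adjusted p. The procedure was tested on simulated data. The variance between replicate libraries was 1.72 to 1.99 times counting noise. Versions were R 4.3.3 with edgeR 4.0.16, limma 3.58.1 and DESeq2 1.42.0, and for tables and plots Python 3.11.15 with matplotlib 3.10.9.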

Additional observations from a re-analysis of the deposited data

How the results depend on the processing

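Over all genes, log2(TPM + 1) and log2(TPM + 0.1) called 1151 and 1137 lower and effective-length offsets 1801, against 2785. Both TPM settings moved the median log2 fold change of all genes from −0.01, to 0.09 and 0.10. Upper-quartile factors moved it down to −0.05, a shift that also enters the upper-quartile values of the members given above. Without the low-count filter it was −0.03, over 21402 genes. Of the members, 9 were lower with either TPM pseudocount against 15, and 22 with upper-quartile factors. Synthesis genes called lower were 5 with upper-quartile factors and with the length correction, and 1 with either pseudocount, against 3. Activation genes called lower were 2 with the length correction, against 1. Oxidation genes called lower were 6 with either pseudocount and 5 with the length correction, against 10, and 1 was called higher with either pseudocount. Leaving out 1 library gave 2579 to 2698 genes higher and 2486 to 2562 lower, and 5 to 6 members higher and 13 to 16 lower. Cpt1a was called higher under all 15 alternatives.

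Signs turned for members whose value was near 0 or uncertain. With log2(TPM + 1) and log2(TPM + 0.1), Acly was 0.03 with both, Acsl1 0.07 and 0.08, Cpt1b −0.34 and −0.58, Acadm 0.11 with both and Hadha 0.20 with both. With effective-length offsets Acsl4 was −0.01, Cpt1b −0.58 and Hadha 0.09. With the length correction Acaca was −0.15, Scd1 −0.12, Acsl4 −0.18 and Acadm 0.09. Acsl4 was also −0.03 with upper-quartile factors and −0.01 without the low-count filter. Leaving out 1 library moved Acsl4 from −0.03 to 0.06, Cpt1b from −0.16 to 1.00 and Etfdh from −0.02 to 0.10. Apart from the construction of the settings, the cause was not tested. The labels state no pairing. Deviations of same-numbered libraries correlated by −0.025, −0.009 and −0.031, and those of differently numbered libraries by 0.001 to 0.026. These values show no deviation shared by replicate number, but they cannot tell whether the samples were collected in pairs. The fit with the replicate block called 2850 genes higher and 2743 lower, and changed the call of no member, while G0s2 lost its call (−0.64, adjusted p = 0.0509). Depth limits Acacb, Elovl7, Cpt1b and Acot7, which stood between 0.52 and 5.90 CPM in every library.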
